A study of Mus musculus with 9 samples.

Results

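The 981 intervals described here are wild-type H3K4me3 sites of PRDM9 that lie next to another such site. They were chosen by position in the wild-type list, as every interval whose nearest other interval on the same chromosome was at a gap of at most 2000 bp. They made up 5.32% of the 18427 intervals of that list. H3K4me3 and H3K36me3, histone H3 trimethylated at lysine 4 and at lysine 36, were mapped by chromatin immunoprecipitation and sequencing in spermatocytes from mice of 14 days. The 3 genotypes were wild-type C57BL/6J (B6), mice homozygous for the em2Kpgn allele of Prdm9, in which glutamate 360 is replaced by proline (EP), and mice homozygous for the em3Kpgn allele, in which the same residue is lysine (EK). Both mutant strains carry the C57BL/6J background, and the labels call both substitutions severe catalytic hypomorphs. Each genotype had 2 H3K4me3 libraries and 1 H3K36me3 library, and 6 of the 9 libraries were re-analysed earlier data, namely all 3 of B6 and, for H3K4me3, both of EP and 1 of EK. The earlier and the later libraries fall unevenly over the genotypes for EK H3K4me3 and for H3K36me3 in both mutants, so batch and genotype cannot be told apart there. For H3K4me3 in B6 and EP all libraries were earlier data, and their batches beyond that label could not be checked.

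PRDM9 binds DNA through a zinc-finger array in early meiosis and trimethylates lysines 4 and 36 of histone H3 on the nucleosomes around its binding site. In mice, the sites that carry both marks are where the double-strand breaks of meiotic recombination are directed. A pair of binding sites in the same stretch of chromatin and a single domain divided by peak calling cannot be told apart in these lists. The question asked of each pair was whether its members met the same fate when the enzyme was weakened. The purity of the spermatocytes could not be checked, since peak lists hold no expression values.

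Each genotype had 1 H3K4me3 list and 1 list of intervals carrying both marks, with no score, height or read count. A member was called kept in a mutant when at least 1 bp of it was covered by an H3K4me3 interval from that mutant. It was called double-marked in a genotype when an interval of that genotype's list of both marks overlapped it. All lists were limited by the authors to one preset collection of PRDM9-dependent sites. A site that was not kept is therefore one without a detected interval, and the read depth behind that absence is unknown. With a single list of each kind for a genotype, the values below have no replicate error. All 95% intervals and p-values describe sampling of intervals or pairs only.

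Sequence could be shown where a member overlapped the window around an annotated gene start, 250 bases before to 50 bases after it. This was so for 9 members, 4 of them at protein-coding genes. Nedd4 (a ubiquitin ligase) and Cst8 (a cystatin of the male reproductive tract) are shown because both mutants kept the member at the promoter and at least 1 neighbour. Rgs3 (a regulator of G-protein signalling) is shown as a promoter in a pair that neither mutant kept. Sequences are from RefSeq, assembly GRCm38.p6, written 5′ to 3′ on the gene's strand. Capitals mark the bases inside the wild-type interval.
Nedd4, chr9:72693048-72693347, plus strand: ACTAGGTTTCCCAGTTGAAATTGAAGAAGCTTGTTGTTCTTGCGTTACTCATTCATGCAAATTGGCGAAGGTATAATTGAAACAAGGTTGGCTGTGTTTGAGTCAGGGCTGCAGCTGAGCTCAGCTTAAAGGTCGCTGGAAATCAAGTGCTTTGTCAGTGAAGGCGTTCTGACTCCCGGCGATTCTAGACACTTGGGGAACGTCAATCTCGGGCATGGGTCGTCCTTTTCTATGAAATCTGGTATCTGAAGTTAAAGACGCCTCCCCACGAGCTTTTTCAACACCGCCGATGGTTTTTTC
Cst8, chr2:148798589-148798888, plus strand: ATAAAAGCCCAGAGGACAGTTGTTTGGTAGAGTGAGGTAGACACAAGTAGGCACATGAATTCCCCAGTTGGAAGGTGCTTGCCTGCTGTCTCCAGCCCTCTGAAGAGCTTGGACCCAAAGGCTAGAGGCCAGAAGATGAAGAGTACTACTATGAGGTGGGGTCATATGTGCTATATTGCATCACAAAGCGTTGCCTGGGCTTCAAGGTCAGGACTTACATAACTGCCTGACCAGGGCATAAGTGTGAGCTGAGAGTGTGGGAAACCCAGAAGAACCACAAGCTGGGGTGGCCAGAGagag
Rgs3, chr4:62559597-62559896, plus strand: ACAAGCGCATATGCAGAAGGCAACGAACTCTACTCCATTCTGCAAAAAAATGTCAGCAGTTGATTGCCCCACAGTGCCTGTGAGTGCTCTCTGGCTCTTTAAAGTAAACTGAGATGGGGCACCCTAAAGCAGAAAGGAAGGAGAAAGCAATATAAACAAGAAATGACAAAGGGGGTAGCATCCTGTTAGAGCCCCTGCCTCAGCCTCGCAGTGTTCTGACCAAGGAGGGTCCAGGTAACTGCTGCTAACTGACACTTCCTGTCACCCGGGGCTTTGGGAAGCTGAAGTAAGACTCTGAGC
All 300 bases of the Nedd4 and Rgs3 windows and 296 bases of the Cst8 window lay inside a wild-type interval. The letters GNTGCTNCT, the core reported for the PRDM9 allele of C57BL/6J, were searched on both strands. They occurred in none of these 3 windows, and in 2377 of all 32851 RefSeq windows of this length (7.24%). Among the 9 windows that overlapped members, 1 held them, that of the non-coding gene Gm52784. Among the 190 windows overlapping other wild-type intervals, 24 held them (12.6%). In the Gm52784 window below, shown as the only example, capitals mark 4 matches, of which 3 overlap one another in a short repeat.
Gm52784, chr5:121283230-121283529, minus strand: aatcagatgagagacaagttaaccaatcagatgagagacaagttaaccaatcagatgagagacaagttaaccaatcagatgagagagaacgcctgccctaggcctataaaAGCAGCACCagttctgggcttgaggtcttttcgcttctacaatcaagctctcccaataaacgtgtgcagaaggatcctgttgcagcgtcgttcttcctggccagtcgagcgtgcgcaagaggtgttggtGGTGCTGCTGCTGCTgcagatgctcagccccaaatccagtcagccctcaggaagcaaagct

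The Nedd4 pair illustrates 2 neighbours with 1 fate. Its members at chr9:72692243-72693444 and chr9:72695305-72696004 were 1202 and 700 bp wide in B6, and neither was double-marked. EP kept them as intervals of 1202 and 673 bp, and EK as intervals of 1202 and 807 bp. The Cst8 cluster had 3 members of 670, 648 and 541 bp, none double-marked in B6. EP kept the first and second of these, and EK kept all 3. The Rgs3 pair, with members of 1090 and 489 bp, had no interval in either mutant. None of the 3 members of the Gm52784 cluster was kept or double-marked in any genotype.

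The 981 members fell into 477 clusters when intervals at a gap within the limit were joined. There were 451 clusters of 2 members (902 intervals, called pairs here), 25 of 3 and 1 of 4. The 504 gaps between consecutive members had a median of 794 bp and an interquartile range of 212 to 1312 bp. One gap was an overlap, and the widest was 1998 bp. Members were 975 bp wide at the median (quartiles 678 and 1406 bp), against 1133 bp (835 to 1531) for the 17446 intervals with no close neighbour. Pairs were often unequal, the wider member being a median of 1.59 times as wide as the narrower. These widths and gaps come from the list that chose the members and are descriptions only. Just inside the limit lay 2 members in Ammecr1 on the X chromosome, at a gap of 1998 bp. The nearest intervals left outside were in 9130221F21Rik on chromosome 6, at 2001 bp, and in Nbea on chromosome 3, at 2004 bp.

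Of the members, 663 (67.6%) lay wholly within an annotated gene, 19 (1.94%) overlapped a gene boundary and 299 (30.5%) lay between genes. A protein-coding gene boundary lay within 1 kb of 28 members (2.85%) and of 3.91% of the other intervals (odds ratio 0.721, adjusted p = 0.105, Fisher's exact test, n = 981 and 17446). On the X chromosome were 21 members (2.14%), against 3.44% of the others (odds ratio 0.613, adjusted p = 0.0572, same exact test, n = 981 and 17446). Neither difference passed the 0.05 threshold. Members were chosen by spacing along the chromosome, so the share on X follows in part from how densely its intervals lie. The X-chromosome values are therefore a description only. Both tests count each member as independent, which members of 1 cluster are not. Chromosome 16 had the highest share of its intervals among the members, 59 of 759 (7.77%), and chromosome Y had none of 8.

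Members were kept in the mutants more often than isolated sites and were double-marked in the wild type less often. EP kept 250 of the 981 members (25.5%, 95% interval 22.9 to 28.3), where it kept 19.9% of the whole list. EK kept 219 (22.3%, 19.8 to 25.0), against 17.7% of the whole list. In B6, 309 members were double-marked (31.5%, 28.7 to 34.5), against 37.4% of the whole list. Compared with the 17446 other intervals, the odds ratios were 1.41 for keeping in EP (adjusted p = 5.22e-05), 1.36 in EK (adjusted p = 0.000252) and 0.759 for double-marking in B6 (adjusted p = 0.000206; two-sided Fisher's exact tests, Benjamini-Hochberg over 5 outcomes). Double-marking in the mutants was rare. It reached 28 members in EP (2.85%), against 2.22% of the whole list, and 21 in EK (2.14%), against 1.31%. The EK excess passed the exact test (odds ratio 1.71, adjusted p = 0.0356) and that in EP did not (1.31, adjusted p = 0.180). These calls were not stable. The EK excess did not pass at gap limits of 500, 1000 or 5000 bp or on autosomes (adjusted p from 0.0530 to 0.452, exact), and with 1 member per cluster the EP excess passed (1.75, adjusted p = 0.0379, exact). Keeping did not pass at a gap limit of 500 bp, at odds ratios of 1.20 in EP and 1.19 in EK (adjusted p = 0.299 for each, exact). B6 double-marking did not pass at 1000 bp (0.851, adjusted p = 0.113, exact). These exact tests and 95% intervals count each member as independent, which members of 1 cluster are not. The evidence for keeping and B6 double-marking was weaker with a single member from each of the 477 clusters. Keeping then had odds ratios of 1.38 in EP (adjusted p = 0.0173, exact) and 1.27 in EK (adjusted p = 0.0379, exact). B6 double-marking had 0.810 (adjusted p = 0.0379, exact). EK double-marking went the other way, at 2.19 (adjusted p = 0.0290, exact).

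**Figure D1:**
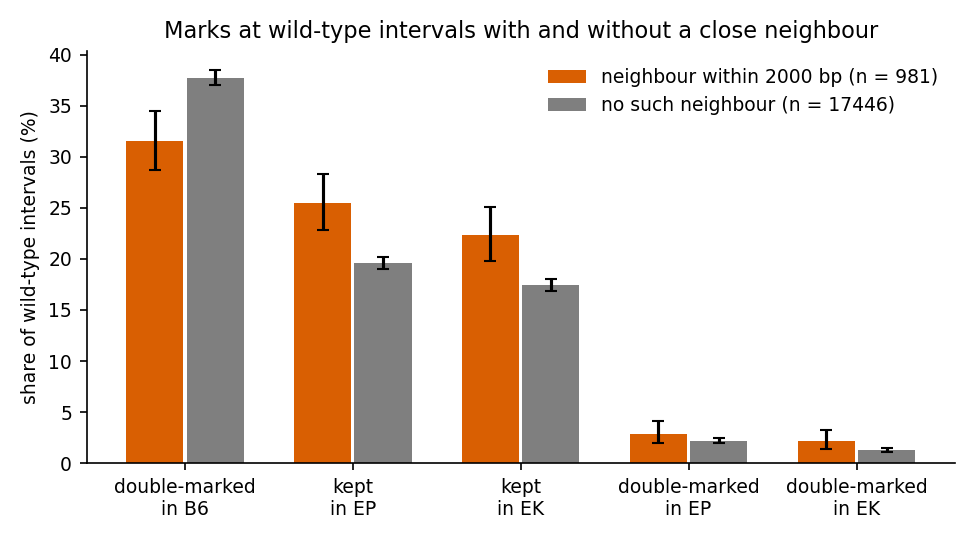
Share of wild-type intervals (percent, vertical axis starting at 0) that were double-marked in B6, kept in a mutant or double-marked in a mutant, for the 981 members and the 17446 other intervals. Bars are shares and error bars 95% Wilson intervals; the members stand above the others for keeping (25.5% in EP, 22.3% in EK) and below them for double-marking in B6 (31.5%).

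Pooled over classes of like width, these differences between members and other sites were no longer found, while opposite differences appeared within single classes. Width is tied to the outcome: among isolated sites, EP kept 49.4% in the lowest decile of width, 4.76% in decile 7 and 58.2% in the highest. Pooled over 10 width classes, the odds ratios were 1.07 for EP, 0.916 for EK and 0.997 for B6 double-marking, with adjusted p from 0.549 to 0.999 over the 5 outcomes (Mantel-Haenszel, n = 18427). The odds ratio was not the same over the width classes (Breslow-Day adjusted p = 4.27e-11 for EP, 4.01e-10 for EK and 5.71e-07 for B6 double-marking, n = 18427). For double-marking in B6, members stood above isolated sites in decile 2 (17.7% against 8.06%) and decile 4 (29.4% against 14.9%), and below them in decile 7 (41.3% against 56.4%) and decile 10 (58.2% against 69.6%).

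Among the narrowest sites, those of 116 to 635 bp, the share of members kept was below that of isolated sites. EP kept 67 of 203 such members (33.0%) and 815 of 1649 isolated sites (49.4%), an odds ratio of 0.504 (95% interval 0.370 to 0.686). EK kept 77 of the 203 (37.9%) and 950 of the 1649 (57.6%), an odds ratio of 0.450 (0.333 to 0.607). Median widths within this class were 534 bp for members and 550 bp for isolated sites. Among sites of middle width, 886 to 1638 bp, the order was the opposite. EP kept 61 of 401 members (15.2%) against 6.49% of 8799 isolated sites, an odds ratio of 2.59 (1.94 to 3.44). EK kept 52 of the 401 (13.0%) against 6.73%, an odds ratio of 2.07 (1.53 to 2.80). In the highest decile, 61.2% of members and 58.2% of isolated sites were kept in EP, and 31.6% and 27.0% in EK. The ranges were chosen after the shares had been seen, so no p-value is given. These values describe the pattern behind the test over all width classes. Members of 1 cluster are not independent, and the 95% intervals above do not allow for it. With 1 member per cluster, the odds ratios were 0.640 and 0.504 for the narrow class in EP and EK, and 2.13 and 1.78 for the middle class. For the narrow class in EP, with 91 members left, the difference was then not detectable at the 0.05 threshold.

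**Figure D2:**
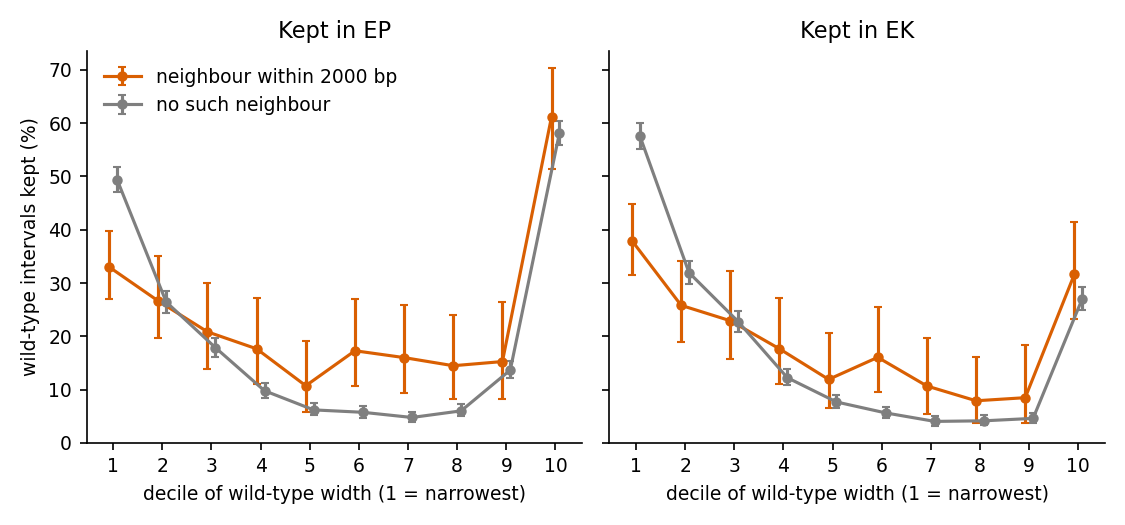
Share of intervals kept in EP and in EK (percent, vertical axis) by decile of wild-type width from narrowest to widest (horizontal axis), for members and for isolated sites. Points are shares and bars 95% Wilson intervals; members lie below isolated sites in the lowest decile (33.0% against 49.4% in EP) and above them in the middle deciles.

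Neighbours shared their fate more often than independent keeping would give. In EP, both members were kept in 50 of the 451 pairs, 1 member in 127 and neither in 274. If the members were kept independently at their observed rates, 28.5 pairs with both were expected. A kept member had a kept neighbour in 44.1% of cases (100 of 227), and a member that was not kept had one in 18.8% (127 of 675). In EK, 55 pairs had both members kept, 92 had 1 and 304 had neither, where 22.5 pairs with both were expected. A kept member had a kept neighbour in 54.5% of cases (110 of 202), and a member not kept in 13.1% (92 of 700). The odds ratio between neighbours was 3.40 in EP (95% interval 2.15 to 5.39, adjusted p = 5.61e-07) and 8.09 in EK (4.89 to 13.4, adjusted p = 6.48e-16; Fisher's exact tests, n = 451 pairs).

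Double-marking was shared too. In B6, both members were double-marked in 80 pairs, 1 in 130 and neither in 241, against 46.5 expected with both. The odds ratio was 4.63 (3.02 to 7.12, adjusted p = 3.77e-12, exact), and 55.2% of double-marked members had a double-marked neighbour, against 21.2% of the others. In EK, 3 pairs had both members double-marked and 13 had 1 (odds ratio 36.3, 7.06 to 186, adjusted p = 0.000596, exact). In EP, 1 pair had both and 23 had 1 (odds ratio 3.56, adjusted p = 0.280, exact). Holding the width classes of both members fixed left odds ratios for keeping of 2.93 in EP and 7.43 in EK, and raised that for B6 double-marking to 12.3. For double-marking in the mutants it gave 106 in EK (12.1 to 925) and 18.5 in EP (1.33 to 259), on the same 3 pairs and 1 pair with both. The EP value did not pass the test (adjusted p = 0.204, Mantel-Haenszel, n = 451 pairs), although its interval lay above 1. Large-sample intervals are unreliable at such counts.

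One mutant interval can cover both neighbours and so make them share a call. This happened in 9 pairs in EP and 13 in EK. Each of them counts as a pair with both members kept, so leaving them out can only lower the odds ratio. Without those pairs the odds ratios were 2.79 in EP (adjusted p = 6.16e-05, exact, n = 442 pairs) and 6.18 in EK (adjusted p = 3.40e-11, exact, n = 438 pairs). Of the 3 pairs double-marked at both members in EK, 1 was covered by a single interval, and without it the odds ratio was 24.2 on 2 such pairs (3.91 to 149, adjusted p = 0.00967, exact, n = 450 pairs). No B6 double-marked interval covered both members of a pair. Among the pairs of sites at least as wide as the median of the list, the sharing of keeping did not pass the test (odds ratio 2.01, adjusted p = 0.512 in EP; 7.63, adjusted p = 0.0870 in EK; exact, n = 74 pairs).

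The sharing was stronger at short distance than farther away. Isolated sites were paired with the next isolated site at a gap of over 2 to 100 kb, giving 6032 pairs in which each site was used once and no mutant interval covered both. Their odds ratios were 1.20 for keeping in EP, 1.37 in EK and 1.51 for double-marking in B6. The close pairs had odds ratios 2.84 times as large in EP (adjusted p = 3.07e-05), 5.89 times in EK (adjusted p = 4.06e-11) and 3.06 times for B6 double-marking (adjusted p = 1.22e-06; Breslow-Day tests, n = 451 and 6032 pairs). Without the close pairs covered by 1 mutant interval, the ratios to the far pairs were 2.33 in EP (adjusted p = 0.00141) and 4.50 in EK (adjusted p = 1.42e-07, Breslow-Day, n = 442 and 438 close pairs). By gap, over all 451 close pairs, the EP odds ratio was 5.92 up to 200 bp, 3.37 from there to 1000 bp and 2.43 from there to 2000 bp. In EK the same classes gave 33.8, 7.11 and 4.96, and in B6 double-marking 2.56, 6.87 and 3.46. The EP and EK values up to 200 bp rested on pairs covered by 1 mutant interval. All such pairs lay in that class, and they were 9 of its 12 pairs with both members kept in EP and 13 of 15 in EK. Without them its odds ratios, which this exclusion can only lower, were 1.48 in EP (95% interval 0.363 to 6.03) and 4.50 in EK (0.680 to 29.8). Sharing was not detectable among the remaining 102 and 98 pairs of this class. Sharing of B6 double-marking, where no interval covered both members, did not pass in this class either (0.981 to 6.66, adjusted p = 0.0832, exact, n = 111 pairs). Just beyond the limit, at 2 to 5 kb, the odds ratios were 1.87 in EP (1.12 to 3.14), 1.56 in EK and 2.00 for B6 double-marking. The EP interval there overlapped that from 1000 to 2000 bp (1.12 to 5.26), and a step at the limit was not tested. With all close pairs included, a difference between the 3 close classes did not pass the test in any of the 3 outcomes (Breslow-Day adjusted p from 0.154 to 0.385, n = 451 pairs).

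**Figure D3:**
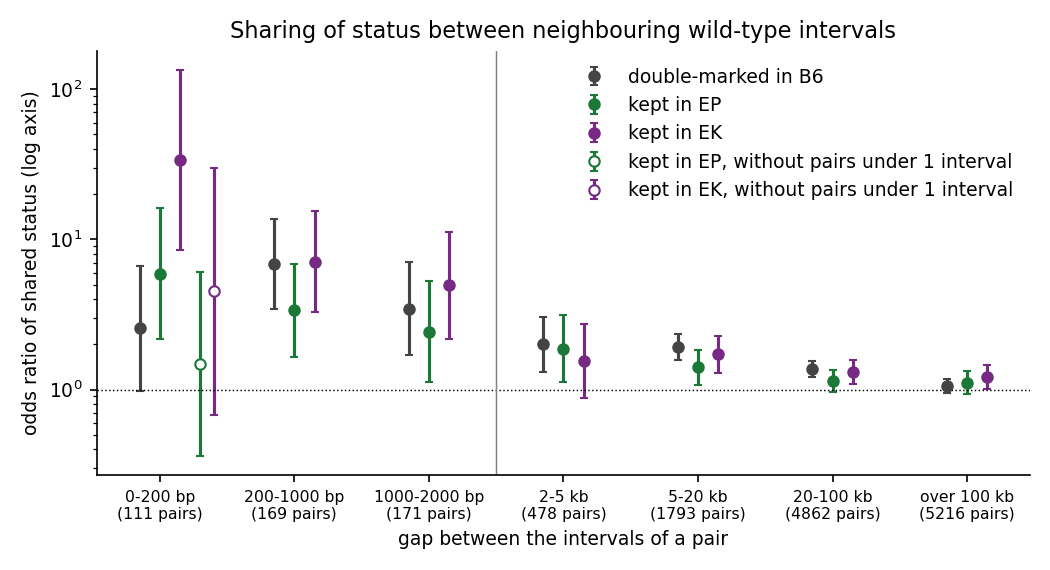
Odds ratio between neighbouring intervals for keeping in EP, keeping in EK and double-marking in B6 (vertical axis, log scale) by class of gap between the 2 intervals (horizontal axis). Points are odds ratios and bars 95% intervals, and the classes beyond 2 kb were paired separately, so their counts do not add up to 6032; open points leave out the pairs covered by 1 mutant interval, which lowers EK at up to 200 bp from 33.8 to 4.50. From 200 to 2000 bp EK lies at 7.11 and 4.96, against 1.56 at 2 to 5 kb, while EP lies at 3.37 and 2.43 against 1.87, and B6 double-marking at 6.87 and 3.46 against 2.00.

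The tie between neighbours was tighter in the EK list than in the EP list. There is 1 list per mutant, so the tests between EP and EK that follow compare these lists over the same pairs or members and measure no spread between mice. The neighbour odds ratio in EK was 2.38 times that in EP (95% interval 1.48 to 3.83, adjusted p = 0.000486, GEE interaction, n = 451 pairs), and 2.25 times without pairs covered by 1 mutant interval (p = 0.00165, n = 438 pairs). The odds ratio of members against other sites did not differ detectably between the lists (EK over EP 0.967, adjusted p = 0.551, GEE, n = 18427). EP kept more of the members, 250 against 219, with 63 kept in EP only, 32 in EK only, 187 in both and 699 in neither (difference 3.16 percentage points, p = 0.00192, exact McNemar test). That test counts each member as independent, which members of 1 cluster are not, and a test by pair is given below. EP kept more of the whole list too, 3661 intervals against 3262. Kept in EP only were 6.42% of members and 5.55% of the other intervals, in EK only 3.26% and 3.44%, and in both 19.1% and 14.0%. At least 1 member was kept in 177 pairs in EP (39.2%) and 147 in EK (32.6%), a difference of 6.65 points (p = 7.33e-05, exact McNemar test). EP thus kept a single member in 127 pairs and EK in 92, while EK kept both in 55 and EP in 50.

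Taking both mutants together, 261 pairs lost both members in both, 70 kept 1 member in each and 41 kept both members in each. In 43 pairs EP alone kept a single member, and in 13 pairs EK alone did. In 14 pairs EP kept 1 and EK both, and in 9 pairs EP kept both and EK 1. No pair was kept whole by one mutant and lost whole by the other. Kept in neither mutant were 645 of the 902 members of pairs, and 80.9% of these had a neighbour in the same state. Of the 55 members kept only in EP, 43 (78.2%) had a neighbour kept in neither mutant, a share close to that. Of the 30 kept only in EK, 13 (43.3%) had such a neighbour and 14 had a neighbour kept in both.

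**Figure D4:**
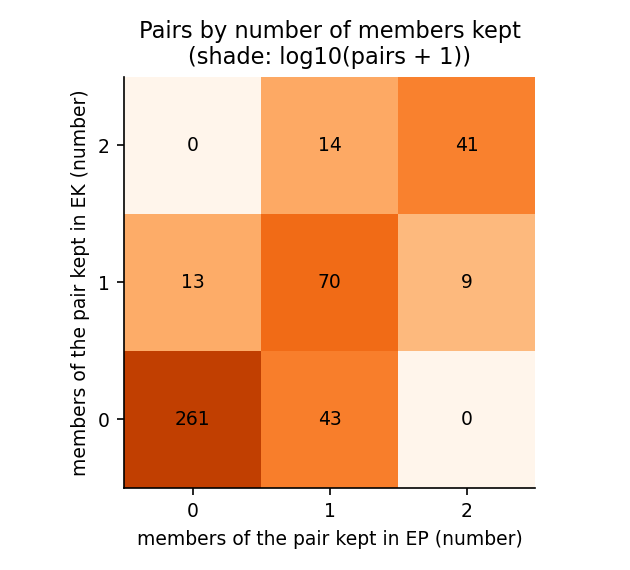
Number of the 451 pairs by how many members EP kept (horizontal axis) and how many EK kept (vertical axis), with the count printed in each cell and a shade that follows its logarithm. The diagonal holds 261, 70 and 41 pairs, and both corners in which one mutant kept 2 members and the other none hold 0.

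Where each mutant kept exactly 1 member of a pair, it was the same member in 67 of 70 pairs (95.7%, 95% interval 88.1 to 98.5). The share was no higher than in pairs of isolated sites at over 2 to 100 kb, where it was 98.3% (1249 of 1270), so it was not particular to close pairs. The 3 exceptions lay in Cx3cl1 (the chemokine fractalkine) and the neighbouring Gm51543 on chromosome 8, in Ttn (titin) on chromosome 2 and in Pan3 (a subunit of a poly(A) nuclease) on chromosome 5; the Pan3 pair was named after its values were seen. In the pair at Cx3cl1, chr8:94782358-94783442 carried a 246 bp interval in EK and none in EP, while chr8:94784415-94785644 carried a 658 bp interval in EP and none in EK. The Ttn pair had a 258 bp EK interval on its 661 bp member and a 548 bp EP interval on its 1205 bp member. In Pan3 the 741 bp member had a 302 bp EP interval and the 801 bp member a 772 bp EK interval.

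Which of the members was kept leaned in different directions in the EP and EK lists. Where EP kept 1 member, it was the wider one in 77 of 127 pairs (60.6%, 51.9 to 68.7, adjusted p = 0.0517, exact binomial). Where EK kept 1, it was the wider one in 37 of 92 (40.2%, 30.8 to 50.4, adjusted p = 0.110, exact binomial). Neither lean passed the threshold by itself, but the difference between the lists did, at an odds ratio of 2.29 (1.61 to 3.26, adjusted p = 1.61e-05, GEE, n = 149 pairs with 1 member kept in at least 1 mutant). In pairs of isolated sites at over 2 to 100 kb the wider site was the kept one in 48.4% of 1887 pairs in EP and in 30.2% of 1675 in EK, so the 2 lists differed in the same direction there. The single leans changed calls with the settings: that in EP passed at a gap limit of 1000 bp (66.3%, adjusted p = 0.0122) and at 50% overlap (60.8%, adjusted p = 0.0439), and that in EK at 5000 bp (32.4%, adjusted p = 7.57e-07, exact binomial). In pairs with a single B6 double-marked member, EP kept that member in 27 of 42 cases (64.3%) and EK in 11 of 32 (34.4%), each with adjusted p = 0.110 (exact binomial). The difference between the lists gave an odds ratio of 3.44 (1.82 to 6.47, adjusted p = 0.000268, GEE, n = 50 pairs). In the pairs of isolated sites the same shares were 52.2% of 807 in EP and 32.3% of 725 in EK.

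Pairs that were double-marked in B6 and pairs that were not are given side by side, with no test. EP kept at least 1 member in 36.1% of the 241 pairs with no double-marked member, 39.2% of the 130 with 1 and 48.8% of the 80 with both. The same shares in EK were 32.0%, 31.5% and 36.3%. The classes also differed in width, with median summed widths of the 2 members of 1708, 2421.5 and 2416 bp, and width was not held fixed. Double-marking of at least 1 member in EP was found in 2.07%, 5.38% and 15.0% of these classes, and in EK in 2.90%, 3.08% and 6.25%. All 3 pairs with both members double-marked in EK had no double-marked member in B6. They lay in Mllt11 and Gpsm2 on chromosome 3 and in Naf1 on chromosome 8, and were named after their values were seen. In Mllt11 the members were 149 and 481 bp wide, 13 bp apart, and 1 EK interval of 643 bp covered both. In Gpsm2, which encodes a spindle-orientation protein, separate EK double-marked intervals of 571 and 481 bp lay over members of 528 and 659 bp. In Naf1 the EK intervals were 667 and 839 bp. The 1 pair with both members double-marked in EP lay in Ube3a (a ubiquitin ligase) on chromosome 7, was double-marked at both members in B6 too, and had EP double-marked intervals of 113 and 859 bp.

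Leaving out the pairs covered by 1 mutant interval, kept intervals had a median width below that of the wild-type interval they overlapped. In EP the median ratio of mutant to wild-type width was 0.606 where both members were kept, 0.577 where 1 was and 0.578 at isolated sites. In EK the medians were 0.660, 0.750 and 0.877. Where EP kept 1 member, the midpoint of its interval was displaced towards the lost neighbour in 75 pairs and away from it in 39, with 12 at no offset and 1 pair left out because more than 1 EP interval lay over its member (adjusted p = 0.00192, exact binomial; 65.8% towards, against 49.4% for the nearest neighbour at isolated sites, p = 0.000568, Fisher's exact test). The median offset was 18.8 bp. In EK, 43 lay towards and 33 away (adjusted p = 0.302, exact binomial). Offsets were measured from the wild-type midpoint, whose edges also set the gaps that chose the members. In a close pair 1 of these edges faces the neighbour, which isolated sites cannot match. The comparison with isolated sites is therefore not like for like, and the part of wild-type peak edges in the offset was not tested. No mutant interval lay wholly within a gap between members.

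Named examples show the range of fates. The largest cluster had 4 members in Trip12 (a ubiquitin ligase) on chromosome 1, of 4985, 576, 2178 and 2033 bp. Both mutants kept only the first, as intervals of 3120 bp in EP and 3196 bp in EK. In Enpp6 (a choline phosphodiesterase) on chromosome 8, 3 members of 880, 5381 and 5524 bp had no interval in either mutant. The last of these was the widest of all wild-type intervals. In Neo1 (neogenin, a netrin receptor) on chromosome 9, EP kept 1 member of 3, with an interval of 1364 bp, and EK kept this member and a second, with 889 and 675 bp. None of these 10 members was double-marked in any genotype.

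Among the 41 pairs kept whole in both mutants, the widest pair lay 26565 bp from Prr32 on the X chromosome. Its members of 2389 and 2916 bp were double-marked in B6 and carried intervals of 1444 and 1781 bp in EP and of 1335 and 1574 bp in EK. In Egfl6, also on X, members of 3080 and 809 bp carried 2055 and 737 bp in EP and 1858 and 824 bp in EK. The pair in Cntnap5b on chromosome 1 (1741 and 1454 bp) kept double-marking of its first member in both mutants, over 1521 bp in EP and 1614 bp in EK. A pair whose nearest gene was Exoc2, 90579 bp away on chromosome 13, had 1 member double-marked in all 3 genotypes, over 2429 bp in B6, 640 bp in EP and 570 bp in EK. No pair had both members double-marked in all 3 genotypes.

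A gap of a few bases did not prevent neighbours from differing. In Aldh5a1 (a dehydrogenase of GABA breakdown) on chromosome 13, the members were 5 bp apart. The member of 1707 bp, double-marked in B6, was lost in both mutants, and the member of 591 bp was kept over 570 bp in EP and 591 bp in EK. In Mterf2 on chromosome 10, members of 740 and 968 bp lay 22 bp apart and only the second was kept, over 743 and 867 bp. In a pair on chromosome 1, at a gap of 17 bp and 672861 bp from its nearest protein-coding gene, Pou3f3, the kept member was the wider one of 1558 bp. In a pair on chromosome 16 whose nearest protein-coding gene, Zpld1, was 1122062 bp away, at a gap of 30 bp and with both members double-marked in B6, both mutants kept and double-marked the member of 2410 bp alone.

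At the other end, 41 of the 80 pairs double-marked at both members in B6 were lost whole in both mutants. Over all 451 pairs, 261 were lost whole in both. The widest of the 41 were in Rims2 (a regulator of synaptic vesicle release) on chromosome 15, with members of 2122 and 2589 bp, in Lama2 (a laminin chain) on chromosome 10, with 1863 and 1757 bp, and in Scfd2 on chromosome 5, with 2057 and 1369 bp. Their B6 double-marked intervals covered from 1283 to 2565 bp of each member.

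**Figure D5:**
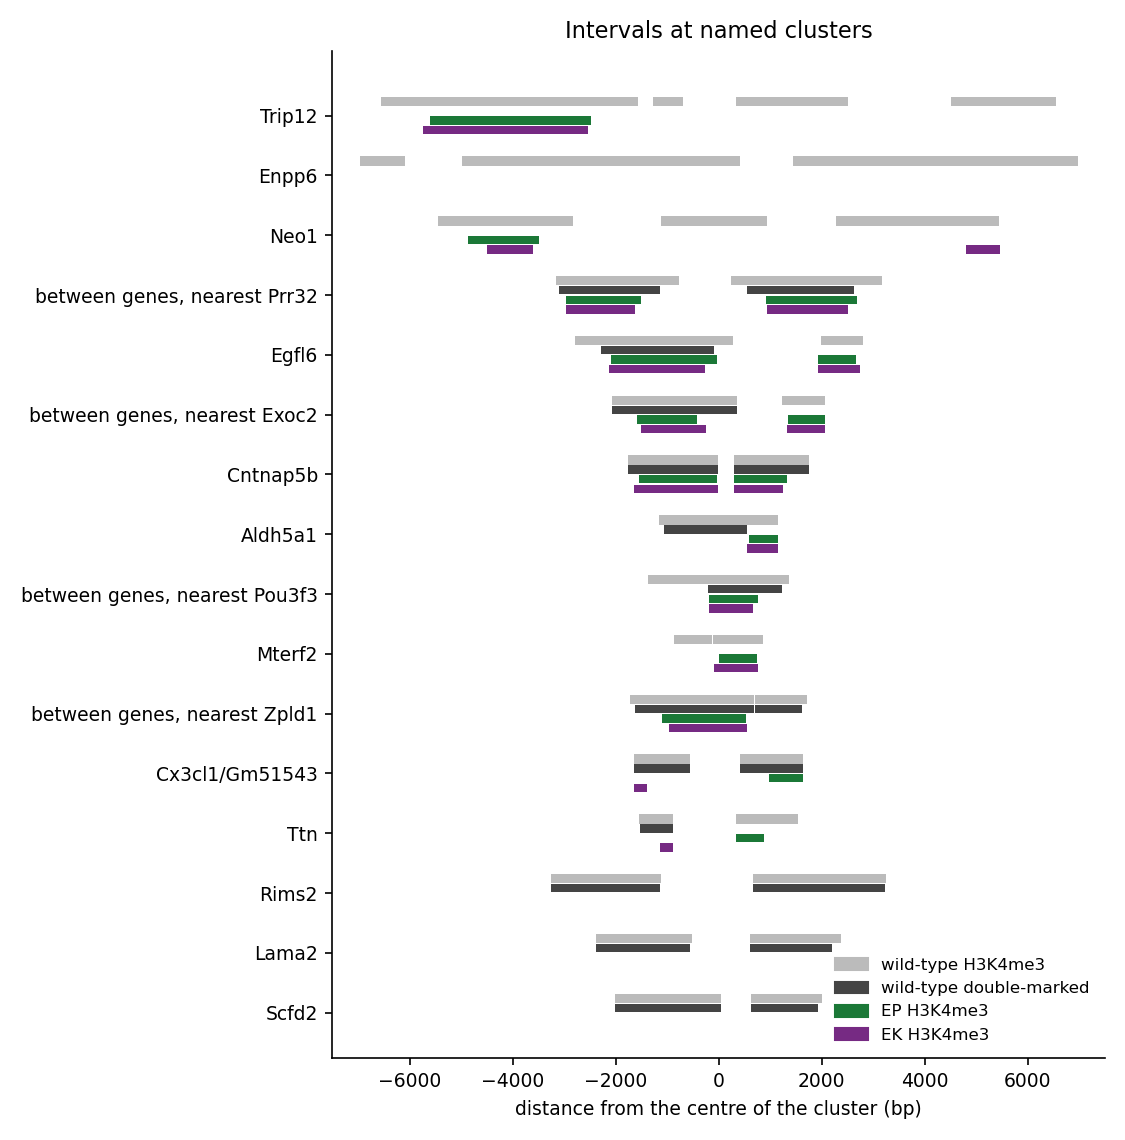
Wild-type intervals and the B6 double-marked, EP and EK intervals over them at selected clusters named in the text, drawn to scale as distance from the cluster's centre (bp, horizontal axis). Filled bars are intervals of each list; a missing bar means that the list had no interval there, as for both mutants in Enpp6.

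The 25 clusters of 3 members are described without a test. EP kept no member in 12, 1 in 8, 2 in 1 and all 3 in 4, and EK in 16, 4, 3 and 2. The clusters with all 3 kept, named after their values were seen, included 1 on chromosome 2, at 12745 bp or more from its nearest gene Ino80, where both mutants kept every member. In Ercc6l2 on chromosome 13, members of 1494, 732 and 2617 bp carried EP intervals of 451, 285 and 786 bp and no EK interval. At Stmn1 on chromosome 4 and in Mageb16 on the X chromosome, EP kept all 3 members and EK kept 2 of 3. Cst8, described above, was the reverse, with all 3 in EK and 2 in EP.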

How the data were processed

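For each of 3 genotypes the authors deposited the positions of H3K4me3 peaks and, separately, of peaks carrying both marks, 6 files in all. Per the description deposited with the files, peaks were those detected at known PRDM9-dependent sites, and reads were mapped to mm10. Per the submitters' processing notes the tools were Trimmomatic, BWA 0.7.9a and MACS 1.4; their settings, thresholds and roles are not given in the sources used here. Each list holds positions only. The deposited wild-type and EP H3K4me3 lists came from an earlier series. No list is split by replicate, so replicates could not be compared, and read depth is unknown. That the EK H3K4me3 list pools both its libraries is an inference from there being a single list.

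Overlaps of at least 1 bp were scored in Python 3.11.15 with pandas 2.3.3, and their counts were checked against bedtools 2.31.1. Tests were two-sided Fisher's exact, exact binomial and exact McNemar tests in SciPy 1.17.1. Mantel-Haenszel, Breslow-Day (Tarone correction) and GEE estimates were made in statsmodels 0.14.6. The 95% intervals of shares were Wilson intervals, and those of odds ratios were large-sample intervals on the log scale. Benjamini-Hochberg adjustment was made over the 5 outcomes for members against other sites, for sharing and for close against far pairs, over the 5 within-pair tests, over the 2 position tests and over the 4 comparisons of EK with EP. The McNemar tests were not adjusted. The odds ratio between neighbours and its Fisher's exact test were tried on simulated pairs with known odds ratios. The other tests were not part of that check. Figures were drawn with matplotlib 3.10.9. Gene spans and promoter windows were from RefSeq, assembly GRCm38.p6, whose coordinates are those of mm10.

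The members and lists were chosen with earlier results of these data known. Named sites, leaving out chromosome 18, were the 3 clusters with most members, up to 4 pairs of each kind kept whole in both mutants (widest first) or kept at the same single member (smallest gap first), up to 2 pairs with opposite members kept, up to 3 widest pairs double-marked in B6 and lost in both mutants, and the intervals just inside and outside the gap limit. Among the tied clusters of 3 members, those in Enpp6 and Neo1 had the longest spans. Alternatives covered the gap limit, the overlap rule, narrow sites, the X chromosome, gene boundaries, width, distance of the reference pairs and 1 member per cluster.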

Additional observations from a re-analysis of the deposited data

Results flagged for a closer look

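The following 3 differences between the EP and EK lists in an odds ratio passed a test of the difference itself. These 3 tests were chosen after the lists had been seen, and another comparison, of members against other sites, did not pass (EK over EP 0.967, adjusted p = 0.551, GEE, n = 18427). With 1 list per mutant these tests take pairs of intervals, not mice, as the units. The first was the tie between neighbours: the odds ratio of keeping between the members of a pair was 8.09 in EK and 3.40 in EP, a ratio of 2.38 (95% interval 1.48 to 3.83, adjusted p = 0.000486, GEE, n = 451 pairs).

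The second was the width of the single member kept. It was the wider one in 77 of 127 pairs in EP and in 37 of 92 in EK, an odds ratio of 2.29 (1.61 to 3.26, adjusted p = 1.61e-05, GEE, n = 149 pairs). The third was the wild-type state of that member. It was the B6 double-marked one in 27 of 42 pairs in EP and in 11 of 32 in EK, an odds ratio of 3.44 (1.82 to 6.47, adjusted p = 0.000268, GEE, n = 50 pairs). Differences in the same direction were present among isolated sites. In their pairs at over 2 to 100 kb, the kept site was the wider one in 48.4% in EP and 30.2% in EK, and the double-marked one in 52.2% and 32.3%. The part of library depth or batch in these differences was not tested.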

How the results depend on the processing

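Of 149 alternatives to 24 results, 124 left the direction and the side of the 0.05 threshold as they were, 15 took a result below it, 8 took one past it and 2 turned the direction. The cause of these moves was not tested. For members against other sites, stratified by width, the odds ratios were 0.997 for B6 double-marking, 1.07 for keeping in EP, 0.916 for keeping in EK (turned) and 1.38 for double-marking in EK, none past the threshold. With a gap limit of 500 bp, 1.20 (EP kept), 1.19 (EK kept) and 1.39 (EK double-marked) no longer passed. Nor did 0.851 (B6) and 1.67 (EK double-marked) at 1000 bp, 1.37 (EK double-marked) at 5000 bp, or 1.63 (EK double-marked) on autosomes. Double-marking in EP passed among wide intervals (1.84) and with 1 member per cluster (1.75). Sharing of keeping did not pass among intervals at least as wide as the list median (2.01 in EP, 7.63 in EK), where 74 pairs were left. It passed but fell by over 1.5 times in EK at 5000 bp (3.83), as did B6 double-marking at 500 bp (2.59), while stratifying by width raised B6 double-marking to 12.3. For double-marking, sharing passed in EP at 5000 bp (4.92) and was lost in EK at 500 bp (46.0), and the EK ratio to far pairs was lost with reference pairs at 2 to 20 kb (5.52) and without pairs covered by 1 interval (5.78). Sharing of double-marking in EK also fell to 15.0 at 5000 bp, 20.4 at gaps over 200 bp and 23.1 without sites near gene boundaries, and rose to 106 when stratified by width. Sharing of double-marking in EP rose to 18.5 when stratified by width and to 15.1 at 500 bp, neither past the threshold. The share of kept members that were the wider one passed in EP at 50% overlap (60.8%) and at 1000 bp (66.3%), and in EK at 5000 bp (32.4%). So did the EK share for B6 double-marked members at 5000 bp (27.4%). The X-chromosome odds ratio, which follows in part from the spacing that chose the members, passed at 5000 bp (0.701). That for gene boundaries turned at 5 kb (1.04).

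No paired analysis was possible because there is 1 list per genotype and kind, with no replicate number, and for the same reason leaving out a replicate was not run. A reference of pairs over 100 kb gave no value for double-marking in EK, which had no pair with both. Counts of 1 and 3 pairs limit every statement on shared double-marking in the mutants, and an absent interval is no measure of how much mark was left.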
